A study of Mus musculus with 6 samples.

Results

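The genes described here are 35 subunits of the standard proteasome core, of its regulatory particle and of its activators, chosen by symbol. All 35 have a row among the 53819 genes of the counts table, and all 35 passed the filter on low counts that left 15232 genes for testing. The proteasome is the protease that degrades ubiquitin-tagged proteins in the cytosol and nucleus. Its barrel-shaped core is built from alpha rings, which gate the entrance, and beta rings, which hold the proteolytic sites. A regulatory particle caps the core, with a base of ATPases that unfold substrates and a lid that strips off ubiquitin, while the PA28 activators (genes Psme1, Psme2 and Psme3) open the gate without ubiquitin. Proteasome inhibitors are established drugs against blood cancers, and lymphoid and interferon-exposed cells exchange the standard catalytic subunits for induced ones.

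The samples are leukaemia cells that had been transplanted into mice and sorted out of the spleen, with 3 libraries labelled SLC6A6 KO and 3 labelled SLC6A6 WT. In both groups the transplanted primary cells carried BCR-ABL and NUP98-HOXA9, fusion oncogenes used together to model blast crisis of chronic myeloid leukaemia (bcCML). Slc6a6 encodes the taurine transporter and is the gene whose loss or reduction is compared: the labels give a KO genotype, while the series title has knock-down. The sources used here do not give the allele, the age and number of mice, the marker used for sorting or whether libraries of a group are separate animals. The spread behind each p-value is therefore that of these libraries alone and may be technical.

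Library totals lay between 42829294 and 44902511 counts in KO and between 44950191 and 49537098 counts in WT. Values below are CPM, the counts of a gene relative to its library's size after TMM scaling, always listed for libraries 1, 2 and 3 of a group in that order. Tests are edgeR's quasi-likelihood F test with Benjamini-Hochberg adjustment over all 15232 genes. Slc6a6 was at 125, 132 and 133 CPM in KO, against 151, 145 and 145 CPM in WT. The groups did not overlap, but the fitted value, 11.7% lower in KO, did not pass the test (adjusted p = 0.196). The sources used here do not give the altered stretch of the gene, so these counts do not check the genotype labels. Summed over Kdm5d, Uty, Eif2s3y and Ddx3y, all Y-linked, KO libraries held 10274 to 11236 counts and WT libraries 0 or 1, so sex of the cells and label cannot be told apart. Erythroid and proliferation genes also differed between libraries, and their values are given beside the results they move with. Of the leukaemic identity list, the pan-leukocyte marker Ptprc was at 131, 97.5 and 87.2 CPM in KO, against 148, 50.1 and 95.4 CPM in WT. In this list 2 of 7 genes passed the test, Kit higher and Bcr lower. Without overlap, 4 were lower in KO and 1, Kit, was higher, where 14.4% and 13.6% of all genes were. The 4 were Bcr, Nup98, Hoxa9 and Abl1, at folds of 0.64, 0.68, 0.76 and 0.81. Adjusted p-values were 0.0961 for Nup98, 0.0502 for Hoxa9 and 0.0986 for Abl1.

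Standard proteasome transcripts were nearly level between the groups. Of the 35 genes, 0 rose and 0 fell in the libraries labelled KO, against 3.56% of all genes tested that passed in either direction (1.64% higher and 1.92% lower) and 3.96% of the 2326 genes whose mean CPM lay in the same range. At an unadjusted p below 0.05 there were 2 members, both lower in KO, where 10.4% of all genes were lower at that level. DESeq2 called 0 of the 35, where it called 13.1% of all genes (7.06% higher and 6.05% lower), and limma-voom called 0, where it called 2.96%. In the fit without covariates the precision was enough to bound the differences between these libraries. The 95% interval of the fold change lay within 1.5-fold in either direction for 35 of 35 members. It did so for 35.5% of all genes and for 76.8% of the genes in the same CPM range. Across the 35 intervals the lower ends reached a fall of 31.9% and the upper ends a rise of 27.9%. With proliferation genes as a covariate the log2 fold change of Psmd3 was −0.72, which is beyond 1.5-fold. Summed over the 35 genes, the level was 11300, 10890 and 11640 CPM in KO, against 11070, 12720 and 12080 CPM in WT. The group means differed by 5.71%, less than the range within either group. In bulk samples fewer cells of a type and less RNA per cell cannot be told apart.

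**Figure D1:**
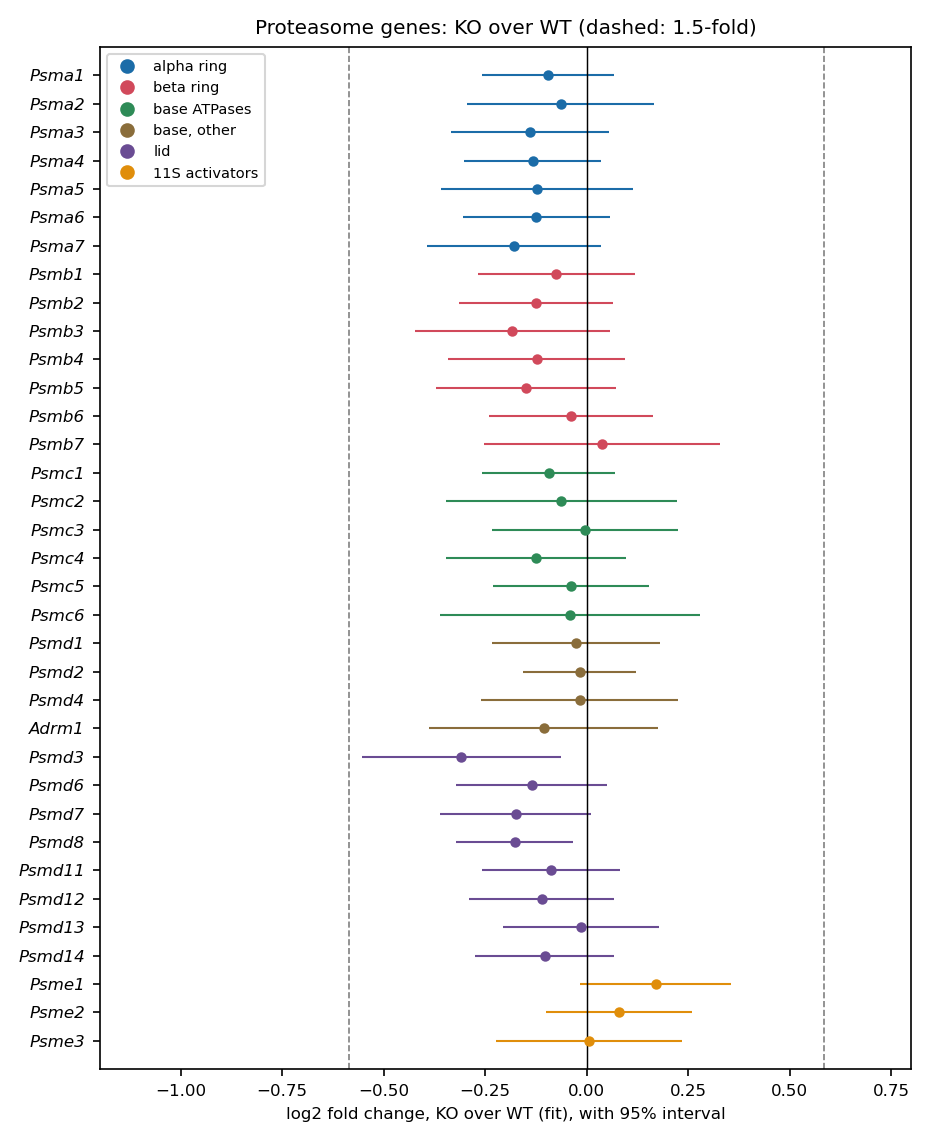
Fitted log2 fold change, KO over WT, of each of the 35 proteasome genes (points) with its 95% interval (bars), coloured by part of the complex. The points run from −0.31 for Psmd3 to 0.17 for Psme1, and every interval stays inside the dashed lines at 1.5-fold.

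The small differences leaned one way. The log2 fold change was negative for 31 of 35 members, against 49.1% of all genes and 55.3% of genes in the same CPM range, and its median was −0.10 (quartiles −0.13 and −0.03) against 0.01 (−0.23 and 0.31) over all genes. The groups did not overlap for 5 members lower in KO and 1 higher, 29 overlapped, and over all genes 28% did not overlap, 14.4% lower and 13.6% higher. In the members' CPM range these shares were 21.4% and 11.2%. The lean rested partly on single libraries. Without WT2 the log2 fold change was negative for 22 members and the median was −0.05, without KO2 the count was 26, and without WT1 the median was −0.16 and 23 members lay lower without overlap.

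The transcripts varied together from library to library, as the plot of levels by library shows. Relative to each gene's mean over the 6 libraries, the median deviation of the 35 on the log2 scale was −0.05, −0.09 and −0.00 in KO, and −0.07, 0.13 and 0.06 in WT. Over the genes in the same CPM range these medians lay between −0.04 in KO1 and 0.05 in WT2. Among the WT libraries, WT1 was lowest for 33 of 35 members and WT2 highest for 32. Among the KO libraries, KO2 was lowest for 21 and KO3 highest for 21. The median within-group standard deviation was 0.09 on the log2 scale for the 35 members, against 0.12 for genes in the same CPM range and 0.22 for all genes tested.

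**Figure D2:**
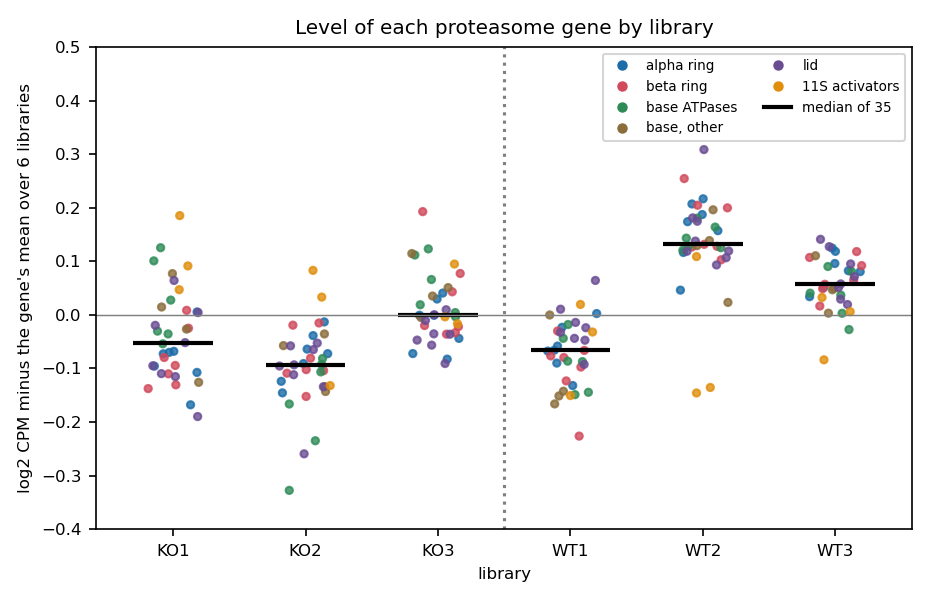
Log2 CPM of each of the 35 proteasome genes (points) in each library, minus that gene's mean over the 6 libraries, with the median as a black bar. Medians run from −0.09 in KO2 to 0.13 in WT2, and WT1 lies below KO3 while WT3 lies above all KO libraries.

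The order of the libraries inside each group was the same for the summed proteasome level, for erythroid markers and for proliferation genes. Erythroid markers summed to 23030, 7491 and 26060 CPM in KO, and to 2095, 10070 and 5512 CPM in WT (9 of 10 listed markers had a row). The 7 proliferation genes, Mki67 and Top2a among them, summed to 2838, 2520 and 3310 CPM in KO and to 1834, 2229 and 2041 CPM in WT. KO2 and WT1 were lowest and KO3 and WT2 highest in their groups on all of these sums. Between the groups the erythroid sums overlapped, and 0 of 9 erythroid genes passed the test. At an unadjusted p below 0.05, 8 of the 9 were higher in KO, where 11.6% of all genes were. Their median log2 fold change was 1.74. Of the proliferation genes, 3 of 7 passed the test, all higher in KO, where 1.64% of all genes were. Neutrophil markers ran otherwise, with 208, 14.5 and 42.6 CPM in KO and 742, 139 and 105 CPM in WT. With the erythroid list as a covariate the median log2 fold change of the members was −0.20, and with the proliferation list it was −0.30. In either fit 0 of 35 members passed the test. Over all genes few passed, 88 higher and 67 lower with the erythroid list and 10 and 2 with the proliferation list. The proliferation sums did not overlap between the groups, so that fit can hardly separate the list from the label. Both fits were added after the data were seen, and the part of these cells or states in the proteasome level was not otherwise tested.

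The alpha ring, whose subunits gate entry into the core, had 7 of 7 negative log2 fold changes (median −0.12) and 0 past the test. Psma7 was the most abundant member per length. It stood at 553, 616 and 587 CPM in KO, against 593, 718 and 678 CPM in WT. Only KO1 and KO3 lay below all WT libraries, and the log2 fold change of −0.18 (SE 0.09, n = 3 each) had an adjusted p of 0.304. Psma4 was the only alpha gene whose groups did not overlap. It was at 210.0, 212 and 226 CPM in KO, against 227, 245 and 239 CPM in WT, with KO3 just below WT1 (adjusted p = 0.331). Psma2 showed the library pattern more than a group difference, with 444, 406 and 452 CPM in KO, against 404, 504 and 453 CPM in WT. The remaining alpha genes, Psma1, Psma3, Psma5 and Psma6, differed by −6.38% to −9.21% in the fit, at adjusted p-values between 0.378 and 0.534.

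In the beta ring, the 3 genes for standard proteolytic sites overlapped between the groups. Psmb5, whose product carries the chymotrypsin-like site that clinical proteasome inhibitors target, was at 109, 108 and 114 CPM in KO, against 109.8, 134 and 124 CPM in WT. Its fitted difference was −0.15 ± 0.09 (log2, SE, n = 3 each; adjusted p = 0.407), with WT1 inside the KO range. Psmb6, with the caspase-like site, was at 338, 354 and 368 CPM in KO, against 328, 390.1 and 369.6 CPM in WT, a difference of −0.04 ± 0.09 (adjusted p = 0.848). Psmb7, with the trypsin-like site, was at 109, 102 and 126 CPM in KO, against 94.4, 119 and 116 CPM in WT, a difference of 0.04 ± 0.12 (adjusted p = 0.901). WT1 was the lowest of 6 libraries for Psmb6 and Psmb7. For Psmb7 the sign turned with the library left out, since without WT1 the log2 fold change was −0.08. Exons of Psmb7 share 34.9% of their length with Nek6 on the opposite strand in GENCODE M21, and since the chemistry does not mark strand, reads of the overlap cannot be assigned by strand. Overlaps of 7.64% to 12.1% of exon length with another gene were found for Psma4, Psmb5, Psmd1 and Psmd13. The non-catalytic beta subunits Psmb1, Psmb2, Psmb3 and Psmb4 differed by −5.08% to −11.9%, the largest being Psmb3 with 210.4, 215 and 228 CPM in KO, against 216, 276 and 249 CPM in WT (adjusted p = 0.349).

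The promoters of Psmb5 and Psmb6 hold the core of the antioxidant response element, the motif through which the transcription factor NFE2L1 is known to raise proteasome genes when proteasome activity is limiting. They are shown with that of Psme1, the activator gene with the highest fold change among the members, which holds a motif like the interferon-stimulated response element. Each is the RefSeq promoter of GRCm38.p6, 250 bases before to 50 after the gene start, on the gene's strand, with capitals marking the motif match. Psmb5 lies at chr14:54617946-54618245 on the minus strand, Psmb6 at chr11:70525107-70525406 on the plus strand and Psme1 at chr14:55578244-55578543 on the plus strand.
Psmb5: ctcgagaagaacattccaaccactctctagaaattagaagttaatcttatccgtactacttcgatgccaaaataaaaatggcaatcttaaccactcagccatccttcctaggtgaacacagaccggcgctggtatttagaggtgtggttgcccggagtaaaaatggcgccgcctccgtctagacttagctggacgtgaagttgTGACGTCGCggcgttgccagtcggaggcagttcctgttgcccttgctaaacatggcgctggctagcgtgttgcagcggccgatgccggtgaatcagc
Psmb6: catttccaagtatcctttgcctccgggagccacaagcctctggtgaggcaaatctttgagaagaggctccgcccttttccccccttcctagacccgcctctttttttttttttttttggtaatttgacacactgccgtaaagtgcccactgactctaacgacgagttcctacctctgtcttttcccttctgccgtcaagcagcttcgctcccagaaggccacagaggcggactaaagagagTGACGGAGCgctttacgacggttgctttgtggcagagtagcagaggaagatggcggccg
Psme1: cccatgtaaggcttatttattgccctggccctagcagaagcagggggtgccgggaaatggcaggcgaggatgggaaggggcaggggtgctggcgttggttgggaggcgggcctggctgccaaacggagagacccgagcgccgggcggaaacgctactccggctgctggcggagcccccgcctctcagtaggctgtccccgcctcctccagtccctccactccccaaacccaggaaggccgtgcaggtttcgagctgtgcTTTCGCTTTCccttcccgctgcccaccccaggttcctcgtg
The first motif, TGACNNNGC on either strand, begins 47 bases before the start in Psmb5 and 9 bases before it in Psmb6, and in Psme1 the second motif, GAAA followed by any 2 bases and GAAA on either strand, lies after the start. Promoters were listed for 29 of the 35 members. The antioxidant response core was in 5 of these 29 (17.2%), namely Adrm1, Psmb5, Psmb6, Psmc6 and Psmd12, against 14.0% of 27025 genes with a promoter of the same length. CCAAT, the box bound by NF-Y, was in 12 (41.4%) against 41.1%. The interferon-type motif, searched after the data were seen, was in 3 (10.3%), Psmb3, Psmd4 and Psme1, against 3.99%. Psmb3 and Psmd4 had negative log2 fold changes (−0.18 and −0.02). The listed promoters of Psme2 and of the induced subunit genes Psmb8, Psmb9 and Psmb10 did not hold the motif. All motif counts are matches of letters only.

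The base of the regulatory particle showed the smallest median differences. Its 6 ATPase genes had a median log2 fold change of −0.05 and the 4 other base genes one of −0.02, with 0 past the test in both. Psmc3 was at 446, 386 and 417 CPM in KO, against 376, 459 and 417 CPM in WT, and its fitted difference was −0.00 ± 0.10 (adjusted p = 0.988), with a sign that turned without KO2 (0.04) and without WT2 (0.07). Psmc6 had the widest standard error of the 35. It was at 211, 154 and 211 CPM in KO, against 182, 211 and 199 CPM in WT, with KO2 apart from the other KO libraries and below all WT libraries. Psmd2, which encodes a scaffold of the base, had the narrowest standard error of the 35, at 668, 645 and 659 CPM in KO, against 661, 672 and 663 CPM in WT and with a difference of −0.02 ± 0.06 (adjusted p = 0.906). The ubiquitin receptor genes also overlapped. Psmd4 stood at 355, 307 and 345 CPM in KO, against 300.0, 371 and 349 CPM in WT (adjusted p = 0.946). Adrm1 was at 122, 120.4 and 144 CPM in KO, against 119.7, 152 and 144 CPM in WT (adjusted p = 0.664). In Adrm1 the libraries KO3, WT2 and WT3 were high and the other 3 low, across the groups.

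The lid had the largest difference in summed level, with 2507, 2444 and 2577 CPM in KO against 2609, 2957 and 2796 CPM in WT, which did not overlap. All 8 genes had a negative log2 fold change (median −0.12), and 0 passed the test. In the lid 4 genes were lower without overlap, where 14.4% of all genes and 21.4% of genes in the same CPM range were, and 2 were lower at an unadjusted p below 0.05, where 10.4% of all genes were. Psmd3 had the lowest fold change of the 35. It was at 353, 336 and 399.7 CPM in KO, against 406, 499 and 444 CPM in WT, fitted 19.2% lower in KO (log2 fold change −0.31 ± 0.10, adjusted p = 0.149) with all KO values below all WT values. Across the 17 alternative settings its log2 fold change lay between −0.72, with proliferation genes as a covariate, and −0.23, without WT2, and its adjusted p between 0.0715 and 0.340. Psmd8, whose product joins the lid last in yeast, was at 364, 375 and 369 CPM in KO, against 410.4, 423 and 419 CPM in WT. The spread within each group was small beside the gap between them (−0.18 ± 0.06, adjusted p = 0.155). Psmd7, the partner of the deubiquitinase, was at 429, 435 and 449.7 CPM in KO, against 451, 525 and 508 CPM in WT (−0.17 ± 0.08, adjusted p = 0.251), with KO3 and WT1 adjacent. Psmd14, the deubiquitinase itself, was at 291, 299 and 311 CPM in KO, against 308, 342 and 317 CPM in WT and overlapped (−0.10 ± 0.07, adjusted p = 0.464). Psmd6 also lay lower without overlap, by 8.96% in the fit (adjusted p = 0.373), and Psmd11, Psmd12 and Psmd13 differed by −0.948% to −7.41%.

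The activator genes lay on the other side. Psme1 and Psme2 encode the interferon-inducible subunits PA28 alpha and beta, which form a shared ring. Psme1 was at 299.6, 279 and 260.4 CPM in KO, against 258, 239.8 and 248 CPM in WT. The groups did not overlap, and the fitted difference was 0.17 ± 0.08 (log2, SE, n = 3 each; adjusted p = 0.261). Psme2 was at 247, 237 and 231 CPM in KO, against 235, 209 and 233 CPM in WT and overlapped (0.08 ± 0.08, adjusted p = 0.602). Its near copy Psme2b had at most 1.69% of the Psme2 count in any library. WT2, the library with the highest level of most core genes, was the lowest of 6 for Psme1 and for Psme2. Psme3, the nuclear activator PA28 gamma, followed the core instead, at 590.5, 522 and 610.4 CPM in KO, against 515, 616 and 585 CPM in WT, with WT2 highest (0.01 ± 0.10, adjusted p = 0.981), and its sign was negative with library totals only and with upper-quartile scaling (−0.01 each). In total 0 of 3 activator genes passed the test.

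Per length, the transcripts of subunits that enter the complex in equal copies differed several-fold in level, in the same way in both groups. In CPM per kilobase of the principal coding transcript of GENCODE M21, Psma7 was highest with 640 ± 34.4 in KO and 725 ± 69.6 in WT (SD, n = 3 each), and Psma3 lowest with 74.1 ± 1.33 in KO and 81.6 ± 6.84 in WT, a ratio of 8.64 in KO and 8.88 in WT. Psmb2 and Psmb6 followed Psma7, at 470 ± 19.6 and 443 ± 18.9 in KO and at 512 ± 38.5 and 454 ± 39.7 in WT, and these neighbours overlapped while Psma7 lay above both in every library. The next genes, Psma1, Psma6, Psmb3 and Psmd7, had the same order in KO and WT. Among catalytic genes Psmb6 stood well above Psmb5 (122.8 ± 3.93 in KO, 136 ± 13.4 in WT) and Psmb7 (97.04 ± 10.7 in KO, 94.5 ± 11.4 in WT). Adrm1, Psmc6 and Psma3 closed the order in WT. The order depends on the lengths used. With the union of all annotated exons as length, the ratio of highest to lowest in WT was 6.88, and Psmb1 was at rank 29 in place of rank 12. The sources used here do not name the annotation used for counting.

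**Figure D3:**
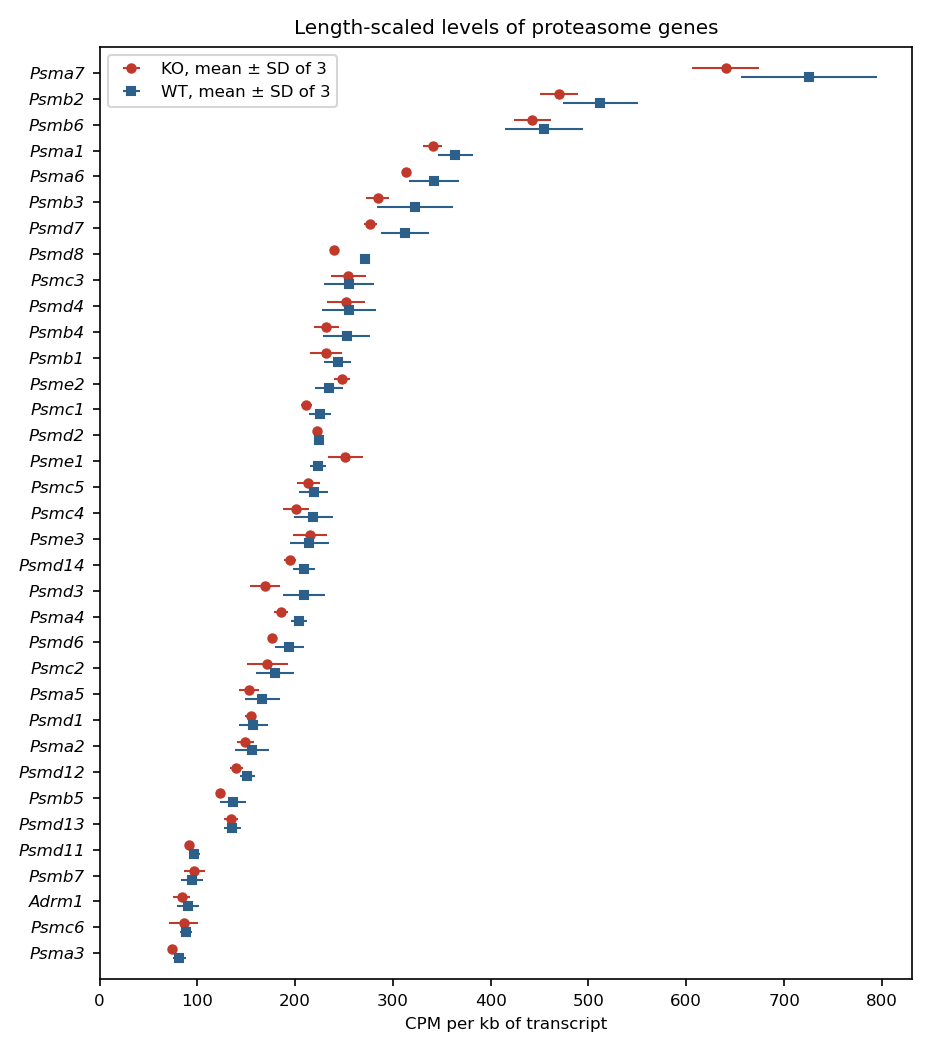
CPM per kilobase of transcript (linear axis) for the 35 proteasome genes, KO as circles and WT as squares, mean with SD of 3 libraries, ordered by the WT mean. Psma7 leads with 640 in KO and 725 in WT, and KO and WT means of a gene lie close together along the whole order.

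Induced catalytic subunits, which are not among the 35, had larger fitted differences than the standard ones they replace, and not all in one direction. Psmb10, the induced trypsin-like subunit, fell in the libraries labelled KO. It was the only gene past the test among the 4 tested genes for induced or tissue-specific subunits. It was also the only one among all 40 related genes tested, where 3.56% of all genes passed in either direction. It was at 135, 124 and 119 CPM in KO, against 185, 202 and 195 CPM in WT, a fold of 0.65 (log2 fold change −0.62 ± 0.08, adjusted p = 0.0171), with no overlap. The call held in 13 of 17 alternative settings. It ended on leaving out KO3 (adjusted p = 0.0696) or WT3 (0.1002). It also ended with a block for replicate number (0.0858) and with proliferation genes as a covariate (0.241). The log2 fold change lay between −0.69 and −0.59 over the 17 settings. Psmb9, which takes the place of Psmb6, was at 142, 153 and 114 CPM in KO, against 89.1, 57.9 and 82.3 CPM in WT. Psmb8, which takes the place of Psmb5, was at 249, 273 and 238 CPM in KO, against 197, 158 and 208 CPM in WT. Both had KO values above all WT values, with fitted differences of 0.83 ± 0.18 (adjusted p = 0.0593) and 0.43 ± 0.12 (adjusted p = 0.0954). DESeq2 called both, with adjusted p-values of 0.000434 and 0.0152, and over 17 settings Psmb9 was called in 4 and Psmb8 in 1. Psma8, a testis-enriched alpha subunit, was at 9.02, 0.392 and 0.485 CPM in KO, against 20.0, 9.65 and 13.6 CPM in WT (−2.13 ± 1.13, adjusted p = 0.328), and without KO1, the high KO library, the log2 fold change was −5.03 with an adjusted p of 0.0181. The thymus-specific gene Psmb11 had 1 count in all libraries together and was not tested.

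**Figure D4:**
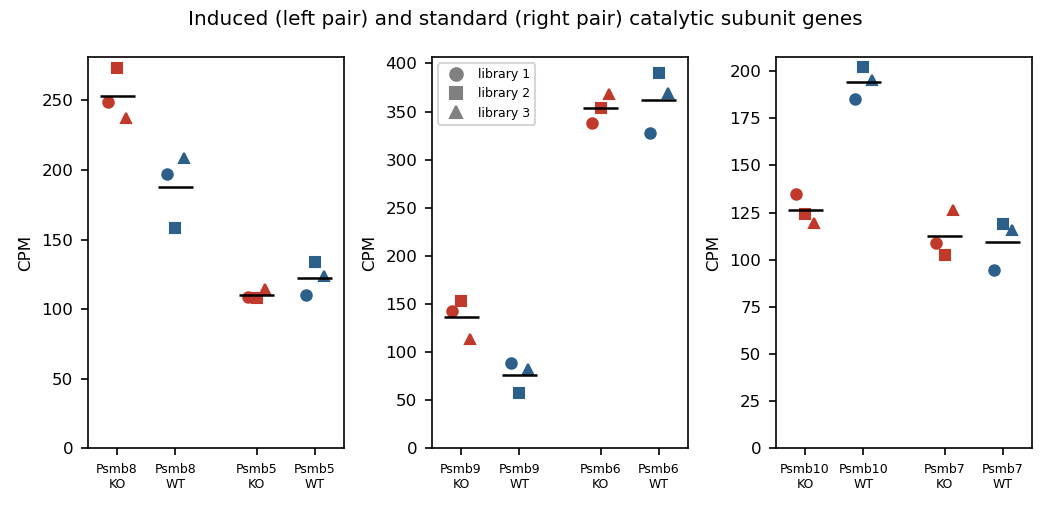
CPM of each induced catalytic gene and of the standard gene it replaces, per library (marker shape gives the replicate number, red KO, blue WT, bar the mean of 3). Psmb8 and Psmb9 are higher and Psmb10 lower in KO without overlap, while Psmb5, Psmb6 and Psmb7 overlap between the groups.

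The balance of induced over standard subunit was compared within libraries, as the log2 ratio of the CPM of a pair. Psmb8 over Psmb5 was 1.19, 1.34 and 1.05 in KO, against 0.84, 0.24 and 0.75 in WT. Psmb9 over Psmb6 was −1.25, −1.21 and −1.69 in KO, against −1.88, −2.75 and −2.17 in WT. Psmb10 over Psmb7 was 0.31, 0.28 and −0.08 in KO, against 0.97, 0.77 and 0.75 in WT. The mean differences, KO minus WT, were 0.58, 0.88 and −0.66, and the groups did not overlap for any of the 3 ratios. The two-sided exact permutation test gave p = 0.1 for each ratio, also after adjustment over the 3, which is the smallest p that 3 against 3 libraries allow. WT2 had the lowest Psmb8 and Psmb9 ratios, and without it the differences were 0.40 and 0.64.

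Markers of immune cells and interferon-linked genes moved with these subunits. Tap1, the peptide transporter gene that lies between Psmb9 and Psmb8 in the genome, was at 208, 188 and 183 CPM in KO, against 151, 113 and 138 CPM in WT (adjusted p = 0.0628). Irf1, an interferon-induced transcription factor known to act on these genes, was at 34.0, 32.3 and 27.3 CPM in KO, against 21.9, 8.62 and 13.2 CPM in WT (adjusted p = 0.113). Both were without overlap and lowest in WT2. Isg15, an interferon-stimulated gene, did not follow, at 496, 67.0 and 151 CPM in KO, against 53.4, 171 and 101 CPM in WT. Of the 9 genes of the interferon-stimulated list 0 passed the test. Markers of other immune cells rose in part. Those of macrophages and dendritic cells summed to 194, 159 and 170 CPM in KO against 61.8, 48.6 and 41.1 CPM in WT. Of these, 6 of 10 passed the test, all higher, where 1.64% of all genes were. The log2 fold change was negative for 2 of the 10. The B cell markers summed to 105, 57.1 and 155 CPM in KO against 5.45, 39.7 and 6.10 CPM in WT, with 3 of 7 tested genes higher past the test. T and NK markers summed to 39.0, 18.9 and 32.4 CPM in KO against 19.2, 14.5 and 21.2 CPM in WT, which overlapped. Of these, 5 of 9 tested genes were higher past the test. Klrb1c went the other way (log2 fold change −1.84, adjusted p = 0.191) and Lck was nearly level (−0.06). Cd4 had a count of 0 in all WT libraries. The part of such cells in the induced subunit levels was not tested.

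Among assembly chaperones, 0 of 8 tested genes passed (median log2 fold change −0.14). Psmg1 and Psmg2 encode partners that nucleate the alpha ring. Psmg1 was at 95.6, 115 and 100.0 CPM in KO, against 109, 134 and 130.0 CPM in WT. Psmg2 was at 117, 146 and 129 CPM in KO, against 147, 169 and 153 CPM in WT. Both differed by −0.26 (SE 0.11 each, adjusted p = 0.239 and 0.206), and of the pair only Psmg2 was without overlap. Paaf1 had no row under that symbol. Of the 3 genes for other subunits, activators and inhibitors, 0 passed. Psmf1, which encodes the inhibitor PI31, was at 192, 99.1 and 201 CPM in KO, against 88.6, 123 and 103 CPM in WT (adjusted p = 0.218), and Psme4, the activator PA200, at 111, 114 and 142 CPM in KO, against 105, 106 and 106 CPM in WT (adjusted p = 0.303). In Psmf1, KO1 and KO3 were high and KO2 level with WT, as in the erythroid sums, and with the erythroid list as a covariate its log2 fold change was −0.04 in place of 0.65, a fit chosen after seeing the data. Without KO2 it was 0.90 with an adjusted p of 0.0391.

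Shuttle factors and proteasome-bound enzymes had 0 of 12 past the test (median 0.02). Ube3c, a ubiquitin ligase bound to the proteasome, was at 134, 129 and 138 CPM in KO, against 127, 111 and 109.8 CPM in WT (0.21 ± 0.09, adjusted p = 0.215), without overlap. In the NFE2L1 pathway 0 of 7 passed (median 0.01). Nfe2l1 itself, singled out after its values were seen as the known regulator of proteasome genes, was at 93.1, 94.4 and 103 CPM in KO, against 99.6, 97.5 and 96.6 CPM in WT, a difference of −0.01 ± 0.08 (adjusted p = 0.942). Ngly1, which deglycosylates NFE2L1 protein, was at 142, 148 and 134 CPM in KO, against 205, 164 and 172 CPM in WT, lower without overlap (−0.35 ± 0.10, adjusted p = 0.109). Nfe2l2, the paralogue that answers oxidative stress, was at 128, 134 and 151 CPM in KO, against 100.4, 112 and 103 CPM in WT, higher without overlap (0.39 ± 0.09, adjusted p = 0.0729). DESeq2 called both of these, with adjusted p-values of 0.0349 and 0.00884.

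Genes of ubiquitin supply had 0 of 6 past the test and a median log2 fold change of 0.00. Uba1, the main ubiquitin-activating enzyme, was at 739, 764 and 750.0 CPM in KO, against 704, 699.5 and 681 CPM in WT (0.11 ± 0.06, adjusted p = 0.327), with KO above WT throughout. The gene lies on the X chromosome, and sex of the cells and label cannot be told apart. Rps27a, a fusion of ubiquitin and a ribosomal protein, was at 328, 356 and 381 CPM in KO, against 375, 442 and 409 CPM in WT (−0.20 ± 0.09, adjusted p = 0.251), where KO3 overlapped WT1.

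**Figure D5:**
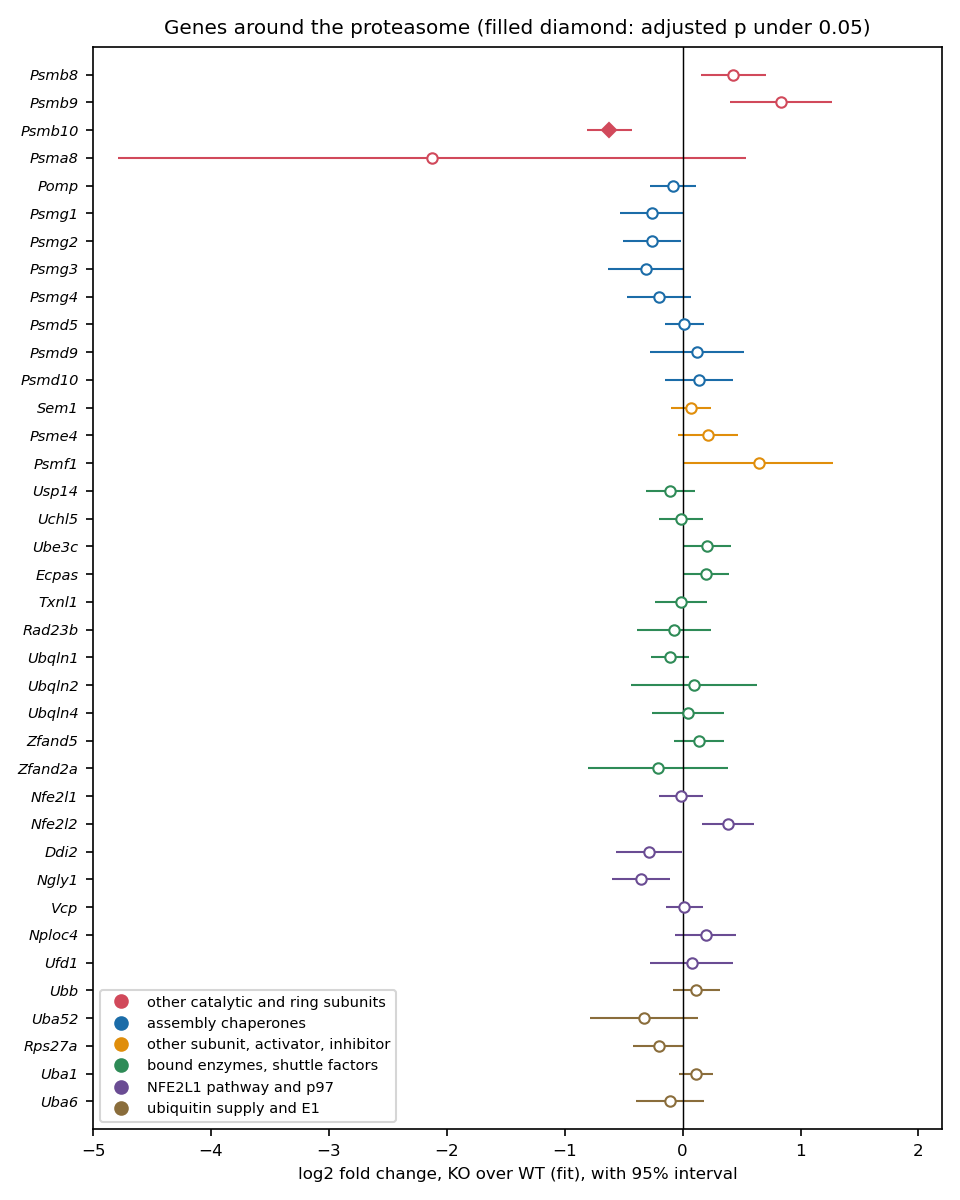
Fitted log2 fold change, KO over WT, with 95% interval for genes around the proteasome, coloured by group; a filled diamond marks an adjusted p below 0.05. Psmb10 at −0.62 is the only filled symbol, Psmb9 at 0.83 has the highest point, and Psma8 has the widest interval.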

How the data were processed

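RNA from sorted mouse leukaemia cells was amplified from poly(A) transcripts with a SMARTer kit and made into Nextera XT libraries read as single ends of 100 nt, per the labels' protocols. The chemistry does not mark strand and carries no molecular identifiers, so errors cover no amplification bias. The standard errors and intervals of the fold changes come from the fit and include the spread between libraries. The deposited values are raw counts per gene, and the submitters' processing notes name STAR 2.7.9a, featureCounts, Subread 2.0.1 and fastp 0.23.1 among the authors' tools. Their settings, genome build and annotation were not given in the sources used here.

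From the deposited counts, genes were kept by filterByExpr (minimum count 10, total 15), libraries were scaled by TMM, and KO was compared with WT by edgeR's quasi-likelihood F test (edgeR 4.0.16, limma 3.58.1, R 4.3.3) with Benjamini-Hochberg adjustment over all 15232 genes and a threshold of 0.05. The quoted n is 3 libraries a group. The script was tested on simulated data. DESeq2 1.42.0, limma-voom, other scalings and filters, a replicate block and leaving out each library were alternatives. Covariates of erythroid and proliferation genes, and the interferon-type motif, were added after seeing the data.

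The members and lists were chosen with earlier results of these data known. Values in every library are given for Psmb5, Psmb6, Psmb7, the activators, and the 4 highest and 4 lowest fold changes, with some further members; of each related list the genes past the test and the 2 with the smallest p are named, except for a gene not reported here. Lengths came from GENCODE M21 and promoters from RefSeq GRCm38.p6. The labels do not say whether replicate numbers pair the libraries.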

Additional observations from a re-analysis of the deposited data

How the results depend on the processing

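Members called stayed at 0 in each direction under all 17 alternatives, while counts over all genes moved. Of all genes, 250 were higher and 293 lower in KO; DESeq2 gave 1075 and 920, the replicate block 8 and 20, the erythroid covariate 88 and 67 and the proliferation covariate 10 and 2, the covariates being chosen after seeing the data. Leaving out 1 library gave 13 to 371 higher (lowest without WT3, highest without KO2) and 29 to 247 lower. The labels do not say whether replicate numbers pair the libraries. Correlations of deviations between libraries of the same number were 0.05, −0.24 and −0.09, and other combinations reached 0.29. With 3 libraries a group they cannot settle whether the libraries were paired. With the block Psmb10 had an adjusted p of 0.0858. The members' median was −0.1622 to −0.0514 with 1 library left out, −0.20 with the erythroid and −0.30 with the proliferation covariate. Members lower without overlap numbered 2 with DESeq2 size factors, 11 with library totals, 9 with upper-quartile scaling and 5 to 23 with 1 library left out. Members higher without overlap numbered 0 with library totals and with upper-quartile scaling, and 1 to 2 with 1 library left out.

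Log2 fold changes near 0 changed sign. Psmc3 was 0.00 with DESeq2 size factors and in DESeq2. Psme3 was −0.0118 with library totals, −0.0136 with upper-quartile scaling, −0.0018 with no filter, −0.0033 with a filter of 1 CPM in 3 libraries, −0.20 with the erythroid and −0.35 with the proliferation covariate. The erythroid and proliferation covariates gave −0.20 and −0.45 for Psmb7, and −0.0362 and −0.52 for Psmf1. The proliferation covariate gave −0.11 for Psme4 and 0.087 for Psma8. The cause was not tested. With 1 library left out, ranges crossed 0 for Psma2 (−0.1622 to 0.0162), Psmb6 (−0.1262 to 0.016), Psmb7 (−0.0803 to 0.0969), Psmc2 (−0.169 to 0.0222), Psmc3 (−0.0939 to 0.0687), Psmc5 (−0.0915 to 0.016), Psmc6 (−0.1199 to 0.0858), Psmd1 (−0.1203 to 0.0321), Psmd4 (−0.1205 to 0.0475), Psmd13 (−0.0828 to 0.0282), Psme3 (−0.0858 to 0.0604) and Nfe2l1 (−0.0697 to 0.0139), most often through KO2 or WT2. The 35 members had means between 111 and 661 CPM, while Psma8 was at 3.30 CPM in KO and 14.4 CPM in WT.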

Other observations

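Several genes around the proteasome that passed no test were without overlap between the groups (14.4% of all genes were lower and 13.6% higher in this way), and are named here after their values were seen. Ddi2, the protease that activates NFE2L1, was at 64.1, 58.0 and 73.4 CPM in KO and at 87.4, 74.6 and 76.3 CPM in WT (adjusted p = 0.217). Psmg3, an assembly chaperone, was at 44.2, 46.0 and 48.1 CPM in KO and at 49.6, 68.5 and 53.4 CPM in WT (adjusted p = 0.245). Ecpas, a proteasome adaptor and scaffold, went the other way, with 177, 196 and 167 CPM in KO and 159.9, 152 and 159 CPM in WT (adjusted p = 0.228). Vcp, the p97 segregase that feeds substrates to the proteasome, overlapped between the groups, at 408, 439 and 444 CPM in KO and at 433, 414 and 431 CPM in WT (adjusted p = 0.934).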
